A study of Mus musculus with 39 samples.

Results

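The measurements below are RNA-seq counts of 8 transporter genes of the solute carrier (Slc) superfamily in mouse microglia, out of 46333 genes in the table of the females and 54532 in that of the males. The 8 genes were Slc2a6, Slc45a3, Slc44a1, Slc41a2, Slc7a2, Slc4a4, Slc5a3 and Slc15a2. They were picked because their counts differed with genotype or with hypoxia in 1 of the 2 tables, so their differences in those same comparisons are a description of the genes that were picked. Where edgeR's calls are given for them, they say which fitted values met the limits and are no independent test. All 8 were found in both tables. The study asked how chronic intermittent hypoxia (CIH), a model of the oxygen swings of sleep apnoea, acts on microglia in the presence or absence of amyloid plaques.

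By the methods, wildtype (WT) C57BL/6J females were mated to 5XFAD males of a B6SJL-Tg line. The mice studied were WT or carried the 5XFAD transgenes, which are driven in neurons by the Thy1 promoter and give early amyloid plaques. From 4 months of age they breathed either room air (normoxia, NX) or air whose oxygen alternated every 90 s between 21% and 6.5%, for 8 h a day by the series description. The methods of the study give another low oxygen level and another daily period. Females were taken at 10 months and males at 8 months, so sex, age and months of exposure cannot be told apart, and the 2 cohorts also come from tables with different gene models. Microglia were pulled from the cerebrum with magnetic beads against CD11b, a surface protein that other myeloid cells also carry. There were 4 libraries of female WT NX and 5 of each of the other 7 groups, 39 in all, and the methods call them independent samples without saying whether each was 1 mouse. Libraries are named here by sex, genotype, treatment and replicate number, as in F WT NX 1.

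Total counts ran from 14731683 to 25906121 in the females and from 13457293 to 23095627 in the males. Levels are given as CPM, the count divided by the library's total and brought to a common size, after scaling with edgeR's TMM factors, and 1 CPM on that scale was 12.9 to 27.2 counts. A list of 10 microglial genes, led by P2ry12, Tmem119 and Cx3cr1, summed to 23700 to 36700 CPM in every library. The lists for other cells were far lower, with 144 to 1060 CPM for astrocytes (9 genes), 3.77 to 23.8 for neurons (8), 142 to 595 for oligodendrocytes (7), 25 to 148 for endothelium (7), 68.3 to 332 for border macrophages (7), 9.05 to 1170 for neutrophils (8) and 18.2 to 1620 for choroid plexus (5). A list of 10 early response genes that cell isolation can raise summed to 1040 to 4940 CPM. A list of 14 genes of plaque-associated microglia, such as Apoe, Cst7 and Clec7a, summed to 11000 to 21200 CPM in the WT libraries and to 49100 to 121000 in the 5XFAD libraries, except for F 5XFAD NX 4. That library, at 11800 CPM, lay among the WT libraries against its label. Some other lists put it with 5XFAD, at 27000 CPM for microglia, 85.3 for border macrophages and 18.2 for choroid plexus. Each was under the lowest female WT library (30800, 143 and 191). Its astrocyte list (146 CPM) was not with the other 5XFAD NX libraries (254 to 375) and was below female WT (161 to 241). Its oligodendrocyte list (160 CPM, against 289 to 325 in the other 5XFAD NX libraries) lay inside the WT range (142 to 351). Its neutrophil list (218 CPM) was the highest of the females. Whether its label is right was not tested, and the results for the 8 genes that it enters are given with and without it where the value moved. F WT NX 1 stood above the other libraries of its group for several of the 8 genes and is treated likewise. None of these lists had a gene at 0 in all libraries of a group.

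Solute carriers move small molecules across membranes. Microglia are the resident macrophages of the brain, and when they gather at plaques they change their lipid handling, lysosomes and energy supply, which all depend on such transport. Slc2a6 (GLUT6) is a hexose transporter found mostly on lysosomal membranes, and Slc45a3 is a proton-coupled sugar transporter first known from prostate. Slc44a1 (CTL1) takes up choline for membrane lipids. Slc41a2 carries magnesium, and Slc7a2 (CAT2) carries arginine and other cationic amino acids. Slc4a4 (NBCe1) moves sodium and bicarbonate and is abundant in astrocytes, Slc5a3 (SMIT1) takes up the osmolyte myo-inositol, and Slc15a2 (PEPT2) takes up small peptides with protons. Counts of transcripts do not show on which membrane a protein sat.

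In GRCm38, the build of the files, the male table places Slc45a3 at chr1:131962967-131982969, Slc2a6 at chr2:27021363-27027998, Slc44a1 at chr4:53440413-53622478 and Slc4a4 at chr5:88886818-89239653. It places Slc7a2 at chr8:40862396-40922308, Slc41a2 at chr10:83230848-83337882, Slc15a2 at chr16:36750177-36784962 and Slc5a3 at chr16:92058322-92087473. All are protein-coding. Slc5a3 lies within Mrps6 on the same strand, a gene of a mitochondrial ribosomal protein, so reads of the 2 cannot always be told apart. Every other gene that overlaps one of the 8 had at most 11 counts in any male library.

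Hypoxia-inducible factors bind DNA at a short core, ACGTG or GCGTG, and the bases before the start of transcription are shown because hypoxia was the treatment, for 4 genes that stand for the results on genotype (Slc2a6 and Slc44a1) and on CIH (Slc5a3 and Slc15a2). The windows come from RefSeq on GRCm38.p6, which had 10 windows for 7 of the 8 genes. Slc7a2 was not among them. The stretches shown are chr2:27027999-27028248 on the minus strand for Slc2a6, chr4:53440163-53440412 on the plus strand for Slc44a1, chr16:92058072-92058269 on the plus strand for Slc5a3, which stops where Mrps6 begins, and chr16:36784963-36785212 on the minus strand for Slc15a2. Letters run 5′ to 3′ on the strand of the gene, and capitals mark either core on either strand, so that CACGC is GCGTG read from the opposite strand.
Slc2a6: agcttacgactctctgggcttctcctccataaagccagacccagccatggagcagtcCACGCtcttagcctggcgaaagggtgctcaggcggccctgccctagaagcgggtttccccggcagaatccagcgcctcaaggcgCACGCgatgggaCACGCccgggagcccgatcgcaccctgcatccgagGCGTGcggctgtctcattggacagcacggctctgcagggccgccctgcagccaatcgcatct
Slc44a1: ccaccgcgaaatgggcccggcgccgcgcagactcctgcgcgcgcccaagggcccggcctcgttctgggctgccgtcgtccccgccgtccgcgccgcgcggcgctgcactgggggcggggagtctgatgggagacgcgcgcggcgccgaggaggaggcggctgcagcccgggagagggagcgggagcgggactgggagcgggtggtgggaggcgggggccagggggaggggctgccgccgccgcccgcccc
Slc5a3: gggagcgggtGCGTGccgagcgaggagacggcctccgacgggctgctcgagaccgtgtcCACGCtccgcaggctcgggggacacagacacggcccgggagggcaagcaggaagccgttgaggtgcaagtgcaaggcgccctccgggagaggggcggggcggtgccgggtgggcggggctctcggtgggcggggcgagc
Slc15a2: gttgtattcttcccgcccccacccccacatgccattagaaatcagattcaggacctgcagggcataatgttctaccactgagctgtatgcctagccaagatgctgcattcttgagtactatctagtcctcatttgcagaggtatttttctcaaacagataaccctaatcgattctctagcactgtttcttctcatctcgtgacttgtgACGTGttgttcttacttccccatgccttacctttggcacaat
In the 250 bases before the start, Slc2a6 held 4 matches to GCGTG, Slc5a3 held 2, Slc15a2 held 1 match to ACGTG and Slc44a1 held 0 in both of its windows. Of the genes not shown, Slc41a2 held 2 matches to each core, and Slc45a3 and Slc4a4 each held 1 match to GCGTG in 1 of 2 windows. Among all 32851 windows of this length, 38.6% held at least 1 of the cores, and 6 of the 10 windows of these genes did. Such matches are a description of letters and not of binding.

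Within the females, WT NX levels per kilobase of gene length ran from Slc44a1 (13.6 ± 1.35 CPM per kb, SD, n = 4) through Slc15a2 (8.94 ± 7.49), Slc2a6 (3.11 ± 1.48) and Slc5a3 (1.64 ± 0.11) to Slc7a2 (0.499 ± 0.748), Slc4a4 (0.372 ± 0.144), Slc41a2 (0.37 ± 0.436) and Slc45a3 (0.229 ± 0.11). Neighbours in this order overlapped within 1 SD, except that Slc5a3 and the 3 genes above it were clear of the last 4. Without F WT NX 1 the order of the last 4 was another, with 0.409 ± 0.152 CPM per kb for Slc4a4, 0.207 ± 0.124 for Slc45a3, 0.153 ± 0.0524 for Slc41a2 and 0.126 ± 0.0507 for Slc7a2 (SD, n = 3). Slc15a2 then stood at 5.31 ± 2.24 and Slc2a6 at 2.44 ± 0.719 CPM per kb, in the same places of the order, and Slc44a1 (12.9 ± 0.664) was clear of Slc15a2. In male WT NX the order was Slc44a1 (4.98 ± 0.471 CPM per kb, SD, n = 5), Slc15a2 (3.19 ± 1.81), Slc2a6 (2.12 ± 1.21), Slc5a3 (0.933 ± 0.192), Slc41a2 (0.155 ± 0.122), Slc4a4 (0.133 ± 0.0783), Slc7a2 (0.115 ± 0.112) and Slc45a3 (0.0366 ± 0.0653). Here too Slc5a3 was clear of the last 4, and all other neighbours overlapped within 1 SD. In 5XFAD NX, Slc2a6 stood next after Slc44a1 in both sexes, with 13.5 ± 5.94 CPM per kb in the females and 11.8 ± 3.23 in the males (SD, n = 5). Without F 5XFAD NX 4 the female value was 15.8 ± 3.58 CPM per kb (SD, n = 4). These levels are not set across the sexes, because the 2 tables give unequal lengths to the same gene, such as 3480 and 6945 bases for Slc44a1.

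The effect of genotype was examined first, in WT NX vs 5XFAD NX and in WT CIH vs 5XFAD CIH. A gene was called when edgeR's quasi-likelihood test gave a false discovery rate (FDR) below 0.05 over all genes tested and an absolute log2 fold change (log2FC) above 1. Slc2a6, Slc45a3 and Slc44a1 were called higher in 5XFAD in all 4 of these comparisons, Slc41a2 was called higher in both CIH comparisons, and Slc7a2 in that of the females. Slc4a4, Slc5a3 and Slc15a2 were called lower in 5XFAD in the CIH comparison of the males. Of the 8 genes, 3 were called in female NX (5.99% of 14513 genes tested were called, 4.4% higher), 5 in female CIH (13% of 14911, 8.83% higher), 3 in male NX (8.25% of 14834, 5.94% higher) and 7 in male CIH, 4 of them higher and 3 lower (18.7% of 14793, 11.8% higher and 6.88% lower). The median log2FC of the 8 was 0.584, 2.06, 1.39 and 0.894 in this order, against −0.02, −0.0184, 0.0232 and −0.0599 over all genes tested. Since the genes were picked from these contrasts, nothing is read from the counts or the medians. Every 5XFAD library was above every WT library for 1 of the 8 genes in female NX (3.43% of genes tested), 5 in female CIH (18.8%), 3 in male NX (8.57%) and 3 in male CIH (19.4%).

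Slc2a6, the lysosomal hexose transporter, was low in WT and high in nearly all 5XFAD libraries. In the females it stood at 10.6, 3.3, 5.94 and 5.76 CPM in WT NX and at 6.37, 4.22, 3.78, 4.47 and 3.92 in WT CIH. In 5XFAD it stood at 36, 32.2, 22.2, 9.11 and 39.1 CPM under NX and at 35.9, 23, 36.2, 35.1 and 40.9 under CIH. Only F 5XFAD NX 4, at 9.11 CPM, fell inside the WT range, and F WT NX 1, at 10.6, was the highest WT library. The male levels were 4.87, 2.62, 5.01, 12.2 and 9.3 CPM in WT NX, 4.44, 3.89, 3.72, 4.26 and 5.42 in WT CIH, 44, 40.1, 48.9, 34.3 and 22 in 5XFAD NX and 46.3, 27.9, 29.4, 40.4 and 62.4 in 5XFAD CIH. No male 5XFAD library overlapped a WT library. The log2FC was 2.10 ± 0.44 (SE) in female NX, 2.92 ± 0.17 in female CIH, 2.48 ± 0.36 in male NX and 3.25 ± 0.22 in male CIH.

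Slc45a3, the other sugar transporter, was counted sparsely in WT. The females held 0.955, 0.232, 1.02 and 0.776 CPM in WT NX and 0.683, 1.07, 1.32, 0.463 and 0.67 in WT CIH, against 4.54, 6.52, 2.39, 1.88 and 5.87 in 5XFAD NX and 8.99, 5.37, 3.87, 6.07 and 7.02 in 5XFAD CIH. Every female 5XFAD library was above every WT library. In male WT NX, 3 of 5 libraries had 0 counts and the others had 8 and 2, so that the levels were 0, 0, 0, 0.537 and 0.115 CPM. The other male groups held 0.688, 0.74, 0.385, 0.21 and 2.19 CPM in WT CIH, 5.03, 6.48, 5.03, 5.32 and 2.53 in 5XFAD NX and 4.17, 1.84, 4.2, 4.73 and 6.87 in 5XFAD CIH. M WT CIH 5, at 2.19 CPM, was above M 5XFAD CIH 2, at 1.84, and the groups did not otherwise overlap by genotype. The log2FC was 2.47 ± 0.50 (SE) in female NX, 2.91 ± 0.30 in female CIH and 2.37 ± 0.53 in male CIH. The fitted 5.30 ± 0.88 of male NX rests on 10 counts in all of WT NX and moves to 7.19 without M WT NX 4, so it gives a direction and not a size.

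Slc44a1, the choline transporter, had the highest mean CPM of the 8 in every group but male WT CIH, where Slc15a2 was above it. It stood at 53.6, 43.5, 47.7 and 43.9 CPM in female WT NX, 40.2, 36.6, 42.5, 45.4 and 45.1 in WT CIH, 151, 147, 102, 41.1 and 136 in 5XFAD NX and 126, 119, 105, 112 and 140 in 5XFAD CIH. F 5XFAD NX 4, at 41.1 CPM, was again among the WT libraries, and the remaining 9 female 5XFAD libraries were at 102 or above. The male levels were 35.7, 35.2, 34.9, 29.2 and 38 CPM in WT NX, 32.3, 41.4, 41.1, 38.9 and 41.3 in WT CIH, 102, 85.6, 100, 117 and 109 in 5XFAD NX and 110, 124, 92.7, 90.6 and 106 in 5XFAD CIH, with no overlap by genotype. The log2FC was 1.28 ± 0.32 (SE) and 1.54 ± 0.08 in female NX and CIH and 1.57 ± 0.12 and 1.44 ± 0.11 in male NX and CIH.

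Slc41a2, the magnesium transporter, was low in WT except in F WT NX 1. Its female levels were 5.4, 0.695, 1.13 and 0.609 CPM in WT NX, 0.171, 0.416, 1.14, 0.257 and 0.825 in WT CIH, 6.32, 3.73, 2.12, 1.06 and 6.85 in 5XFAD NX and 4.75, 4.44, 3.69, 6.88 and 5.45 in 5XFAD CIH. The CIH groups did not overlap, with a log2FC of 3.17 ± 0.39 (SE). Under NX the log2FC was 1.00 ± 0.74, and 2.29 without F WT NX 1. The male levels were 0.863, 0.119, 1.83, 0.94 and 0.402 CPM in WT NX, 0.188, 0.641, 1.03, 0.21 and 1.21 in WT CIH, 2.64, 1.31, 2.09, 3.46 and 2.67 in 5XFAD NX and 2.39, 5.24, 4.65, 2.42 and 3.76 in 5XFAD CIH. The male CIH groups were apart, with a log2FC of 2.50 ± 0.49, while the NX groups overlapped at 1.53 ± 0.59, a value that DESeq2, the likelihood ratio test and the fit of all 4 groups called, as did leaving out M WT NX 3 (2.06).

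**Figure D1:**
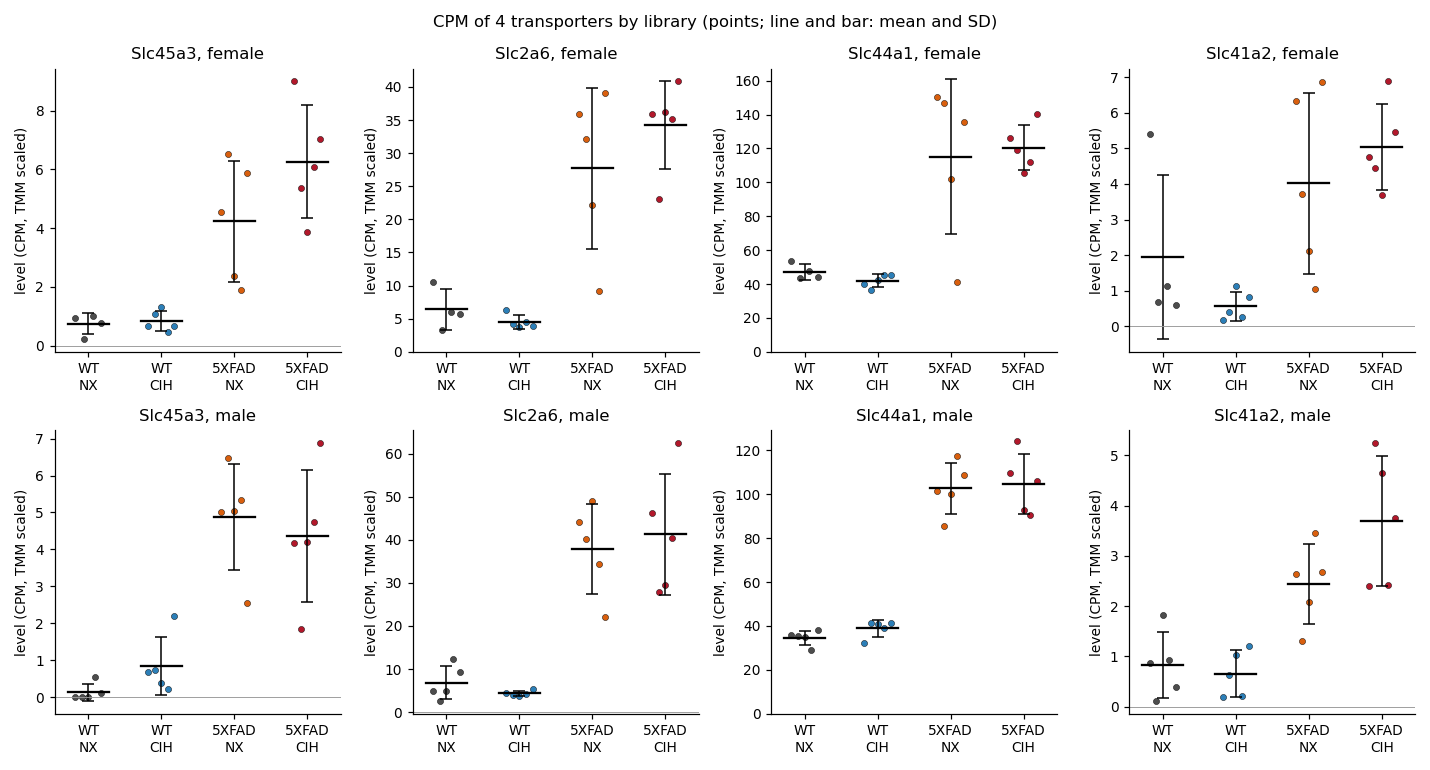
Levels of Slc45a3, Slc2a6, Slc44a1 and Slc41a2 in CPM (TMM scaled, linear axes) in each female library (top) and male library (bottom), by group, with the mean and SD. The 5XFAD libraries sit above the WT libraries except for F 5XFAD NX 4 (41.1 CPM of Slc44a1), a few Slc41a2 libraries and the pair of male CIH libraries named for Slc45a3, and the NX and CIH groups of a genotype overlap.

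The 4 comparisons above do not carry the same weight for each library. In female NX, leaving out any one of F WT NX 3, F WT NX 4, F 5XFAD NX 1, F 5XFAD NX 2 or F 5XFAD NX 5 left 0 of the 3 calls, and leaving out F WT NX 2 left 1, that of Slc45a3, while the log2FC of these 3 genes stayed positive each time. Leaving out F WT NX 1 or F 5XFAD NX 3 ended the call of Slc44a1 alone (1.35 each time). With the replicate number as a block all 3 calls ended, and 0.0482% of all genes were called. The log2FC was then 2.23 for Slc45a3, 1.89 for Slc2a6 and 1.08 for Slc44a1. Without F 5XFAD NX 4 the log2FC of Slc44a1 was 1.49, that of Slc2a6 2.31 and that of Slc45a3 2.65. With both F WT NX 1 and F 5XFAD NX 4 left out, a choice made after their levels were seen, 5 genes were called, Slc41a2 (log2FC 2.53) and Slc7a2 (1.96) besides the 3, and so were 14.8% of all genes. With 1 library left out, 0.189% to 13.3% of all genes were called, the highest share being the one without F 5XFAD NX 4 and the lowest the one without F WT NX 3. The plaque-associated list was higher in 5XFAD, as these genes were, and the astrocyte list reached higher levels there, mostly through Gfap (161 to 241 CPM in female WT and 146 to 673 in 5XFAD, 144 to 252 in male WT and 228 to 1060 in 5XFAD). The oligodendrocyte list reached 142 to 351 CPM in female WT and 160 to 439 in 5XFAD, and 184 to 332 in male WT and 242 to 595 in 5XFAD. The early response list had no one direction, with 1660 to 3420 CPM in female WT NX and 2720 to 4040 in 5XFAD NX, 1790 to 4940 and 1430 to 3710 in female CIH, 1480 to 2050 and 1040 to 1580 in male NX, and 1360 to 2360 and 1610 to 3630 in male CIH. The border macrophage list went the other way and was lower in 5XFAD (143 to 332 against 68.3 to 158 CPM in the females, 146 to 325 against 101 to 189 in the males). The microglia list was lower in 5XFAD without overlap (30800 to 35300 CPM in female WT and 25600 to 28800 in 5XFAD, 28800 to 36700 in male WT and 23700 to 28600 in 5XFAD). In the females the choroid plexus list (191 to 1040 CPM in WT and 18.2 to 408 in 5XFAD) and the endothelial list (55.3 to 114 and 33.7 to 67.9) were also lower. In male CIH the endothelial list was lower without overlap (62.4 to 106 CPM in WT and 25 to 58.2 in 5XFAD). In male NX it overlapped (53.5 to 148 and 65.5 to 123). The part of all these lists in the result was not tested. In bulk RNA, more cells of one state and more transcript per cell cannot be told apart.

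**Figure D2:**
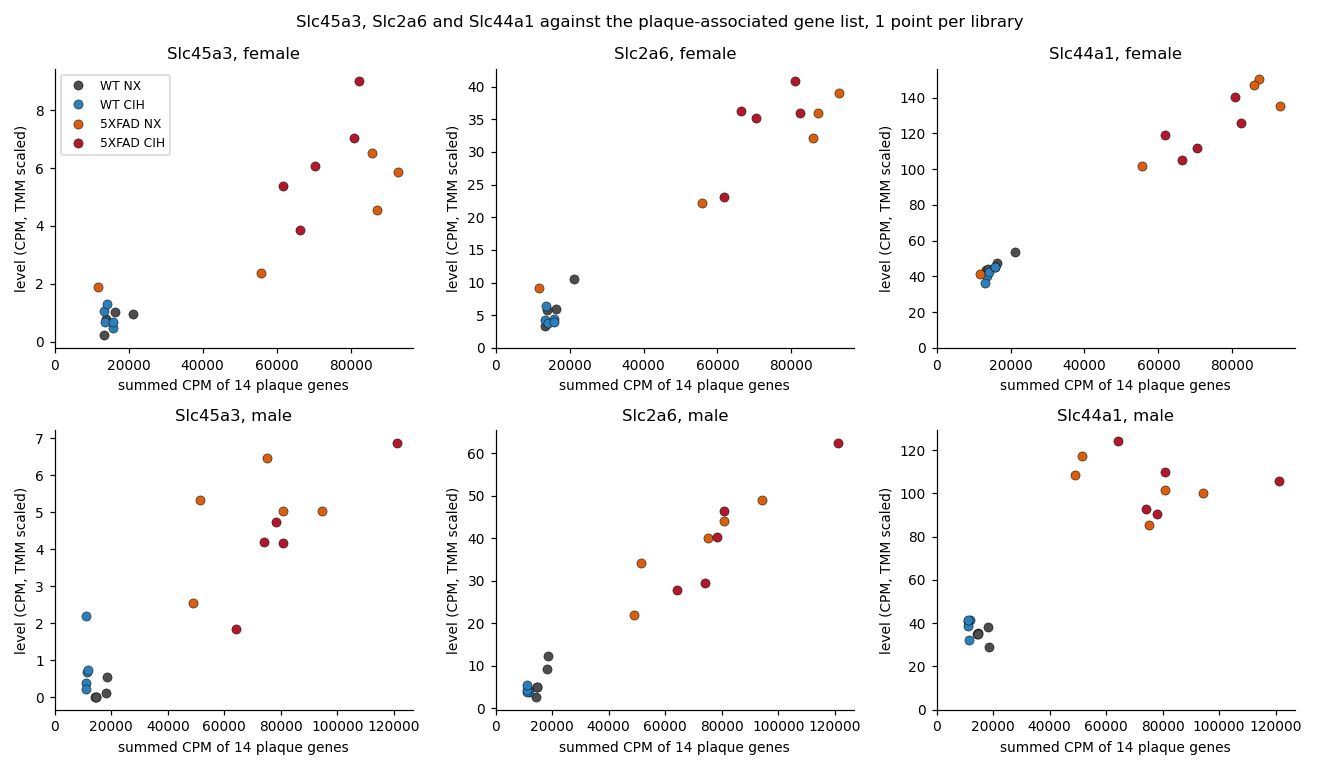
Levels of Slc45a3, Slc2a6 and Slc44a1 in CPM (vertical) against the summed CPM of the 14 plaque-associated genes (horizontal), 1 point per library, females on top. The female 5XFAD point at 11800 CPM among the WT points is F 5XFAD NX 4, which holds 9.11 CPM of Slc2a6 and 41.1 of Slc44a1.

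Within the male groups, after the mean of each group was taken off, the levels of Slc2a6 and of the plaque-associated list had a Pearson r of 0.741 over 20 libraries. The same value was 0.499 for Slc45a3, −0.126 for Slc41a2 and −0.346 for Slc44a1. No female values are given, because F 5XFAD NX 4 lies far from its group in both measures. These values describe libraries that share depth and isolation, and they carry no test.

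Slc7a2, the arginine transporter, was called in 1 comparison, that of the females under CIH. The females held 12.7, 0.868, 1.43 and 0.665 CPM in WT NX, 0.114, 0.594, 1.68, 1.18 and 1.44 in WT CIH, 3.51, 3.39, 3.25, 1.53 and 5.5 in 5XFAD NX and 6.62, 6.04, 6.08, 3.84 and 7.29 in 5XFAD CIH. Apart from F WT NX 1, at 12.7 CPM the highest library of all, each female 5XFAD CIH library was above each WT library. The log2FC was 2.58 ± 0.41 (SE) in female CIH and −0.22 ± 0.81 in female NX, and the latter became 1.78 without F WT NX 1, where Slc7a2 was called, as were 3.67% of all genes. The males held 0.305, 2.15, 0, 0.671 and 2.12 CPM in WT NX, 0.0626, 1.28, 1.41, 3.21 and 2.25 in WT CIH, 2.07, 1.62, 1.93, 3.86 and 2.82 in 5XFAD NX and 1.93, 1.84, 3.22, 2.1 and 1.36 in 5XFAD CIH. Those groups overlapped, with a log2FC of 1.24 ± 0.81 in NX and 0.35 ± 0.57 in CIH. Whether the sexes differed was not tested.

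The effect of CIH was then examined within each genotype. In WT males, 3 of the 7 genes tested were called higher in WT CIH than in WT NX, namely Slc4a4, Slc5a3 and Slc15a2 (2.51% of 14983 genes tested were called, 1.63% higher). Slc45a3 did not pass the filter on low counts there. The other 4 genes were not called, with a log2FC of 0.67 ± 0.86 (SE) for Slc7a2, −0.64 ± 0.33 for Slc2a6, −0.37 ± 0.71 for Slc41a2 and 0.17 ± 0.10 for Slc44a1. The median log2FC of the 7 was 0.672, against −0.0134 over all genes tested. In the other 3 CIH comparisons edgeR called 0 of the 8 genes, and 0% of all genes tested. DESeq2 and edgeR's likelihood ratio test also called 0 of the 8. Each of them called 0.00698% of all genes in 5XFAD males and 0% in the females. At an unadjusted p below 0.05 there were 3 of the 8 in WT females (3.87% of all genes), 3 in 5XFAD females (3.22%) and 0 in 5XFAD males (3.3%). In WT females the log2FC of Slc41a2 was −1.83 ± 0.72 (SE) and that of Slc7a2 −1.98 ± 0.88, and the latter became 0.02 without F WT NX 1. Slc41a2 had 147 counts in that library and 11 to 22 in the other 3 of WT NX. Its value without F WT NX 1 could not be fitted, since too few libraries then passed the filter on low counts, as without F WT NX 3 or F WT CIH 3. In 5XFAD, the log2FC of Slc2a6, Slc45a3 and Slc44a1 lay between −0.16 ± 0.34 and 0.57 ± 0.35 over both sexes. Without F 5XFAD NX 4 the female values were 0.09 for Slc2a6, 0.39 for Slc45a3 and −0.14 for Slc44a1.

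Slc4a4, the bicarbonate cotransporter, was scarce in these cells. The male libraries held 1.12, 1.79, 0.285, 1.41 and 2.58 CPM in WT NX and 0.688, 2.42, 5.39, 10.8 and 8.36 in WT CIH. M WT CIH 1 lay inside the WT NX range, M WT CIH 2 just under its top, and the other 3 above it. The 5XFAD males held 1.76, 4.01, 2.4, 4.73 and 1.83 CPM under NX and 0.926, 0.991, 2.1, 3.26 and 2.07 under CIH, which overlapped. The log2FC was 1.96 ± 0.61 (SE) for WT NX vs WT CIH, −0.65 ± 0.44 for 5XFAD NX vs 5XFAD CIH, 1.04 ± 0.53 for WT NX vs 5XFAD NX and −1.54 ± 0.57 for WT CIH vs 5XFAD CIH. The WT CIH libraries stand in both the first and the last of these values, which are therefore not separate evidence. The females held 1.98, 2.2, 4.4 and 2.71 CPM in WT NX, 0.0569, 0.535, 1.98, 1.34 and 3.35 in WT CIH, 1.03, 2, 2.72, 2.12 and 1.48 in 5XFAD NX and 1.09, 3.87, 2.98, 3.1 and 2.23 in 5XFAD CIH. Their groups overlapped, and their log2FC lay between −0.94 ± 0.65, for WT NX vs WT CIH, and 0.88 ± 0.59, for WT CIH vs 5XFAD CIH.

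Markers of astrocytes, in which Slc4a4 is abundant, are a measured fact beside this result. The 9 astrocyte genes summed to 144 to 203 CPM in male WT NX, 166 to 252 in WT CIH, 392 to 1060 in 5XFAD NX and 228 to 643 in 5XFAD CIH. Gfap, with means of 0.377, 0.735, 387 and 286 CPM in this order, made most of the difference in the sum. Of the 9 genes, 6 had their highest mean in a 5XFAD group (Gfap, Slc1a2, Aldoc, S100b, Aldh1l1 and Aqp4), and 3 had it in WT CIH, where Slc4a4 had its own (Slc1a3, Gja1 and Atp1b2). From WT NX to WT CIH the mean was higher for 7 of the 9 and lower for Aldh1l1 and S100b. Within groups, Slc4a4 and the astrocyte list had an r of 0.433 over the 20 male libraries. The part of astrocyte RNA in the level of Slc4a4 was not tested.

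Slc5a3, the inositol transporter, was counted well in all libraries, at 77 to 575 counts. The males held 10.6, 10.1, 8.07, 13.4 and 8.66 CPM in WT NX and 11.6, 17.9, 22.5, 30.3 and 30.6 in WT CIH. M WT CIH 1 was again the lowest of its group and inside the WT NX range, and the other 4 were above it. In 5XFAD the males held 6.28, 10.8, 5.96, 11.6 and 19.9 CPM under NX and 13.4, 13.8, 8.62, 10.1 and 6.81 under CIH. The log2FC was 1.15 ± 0.23 (SE) for WT NX vs WT CIH, −0.05 ± 0.33 for 5XFAD NX vs 5XFAD CIH, 0.10 ± 0.31 for WT NX vs 5XFAD NX and −1.08 ± 0.26 for WT CIH vs 5XFAD CIH, the value nearest inside the fold limit. Mrps6, whose transcript overlaps it, had a log2FC of −0.23 ± 0.20 and 0.74 ± 0.19 in the first and last of these comparisons, opposite in sign to Slc5a3.

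In the females Slc5a3 stood at 19.5, 16.9, 17 and 18.1 CPM in WT NX, 17.5, 23.3, 26.2, 22.1 and 19 in WT CIH, 17.9, 19.2, 24.5, 25.7 and 13.2 in 5XFAD NX and 15.7, 16.9, 15.4, 14 and 12 in 5XFAD CIH. All 5 libraries of 5XFAD CIH were below all of WT CIH, with a log2FC of −0.53 ± 0.12 (SE) that met the FDR limit and not the fold limit. Of all genes tested, 25.7% were lower at the FDR limit alone and 19.7% were lower without overlap. For WT NX vs WT CIH the value was 0.27 ± 0.12.

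Slc15a2, the peptide transporter, varied widely between libraries of a group. The male WT libraries held 27.4, 7.58, 38.5, 11.7 and 32.1 CPM under NX and 66.1, 50.6, 33.4, 61.1 and 56.7 under CIH. Of the WT CIH libraries, 4 were above every WT NX library and M WT CIH 3, at 33.4 CPM, was not. The male 5XFAD NX libraries split into 3 at 1.95, 1.47 and 1.62 CPM and 2 at 24.6 and 29.4, and those of 5XFAD CIH ran through 42.5, 31.1, 6.9, 2.94 and 17.7. The log2FC was 1.18 ± 0.33 (SE) for WT NX vs WT CIH, 0.77 ± 0.89 for 5XFAD NX vs 5XFAD CIH, −0.98 ± 0.80 for WT NX vs 5XFAD NX and −1.40 ± 0.49 for WT CIH vs 5XFAD CIH.

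The female libraries of Slc15a2 held 61.9, 12, 13.1 and 24.6 CPM in WT NX, 20.7, 15.2, 20, 3.91 and 12.3 in WT CIH, 17.3, 16.4, 9.95, 24 and 40.3 in 5XFAD NX and 1.48, 9.81, 5.24, 13.2 and 1.97 in 5XFAD CIH. F WT NX 1, at 61.9 CPM, was far above its group, as it was for Slc41a2 and Slc7a2. The log2FC of −1.75 ± 0.56 (SE) for 5XFAD NX vs 5XFAD CIH was the largest of the 8 genes in that comparison and was not called. That of −1.16 ± 0.53 for WT CIH vs 5XFAD CIH passed the fold limit and not the FDR limit, which it met without F WT CIH 4 (−1.41) or F 5XFAD CIH 4 (−1.60), with library size alone and without the filter on low counts.

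**Figure D3:**
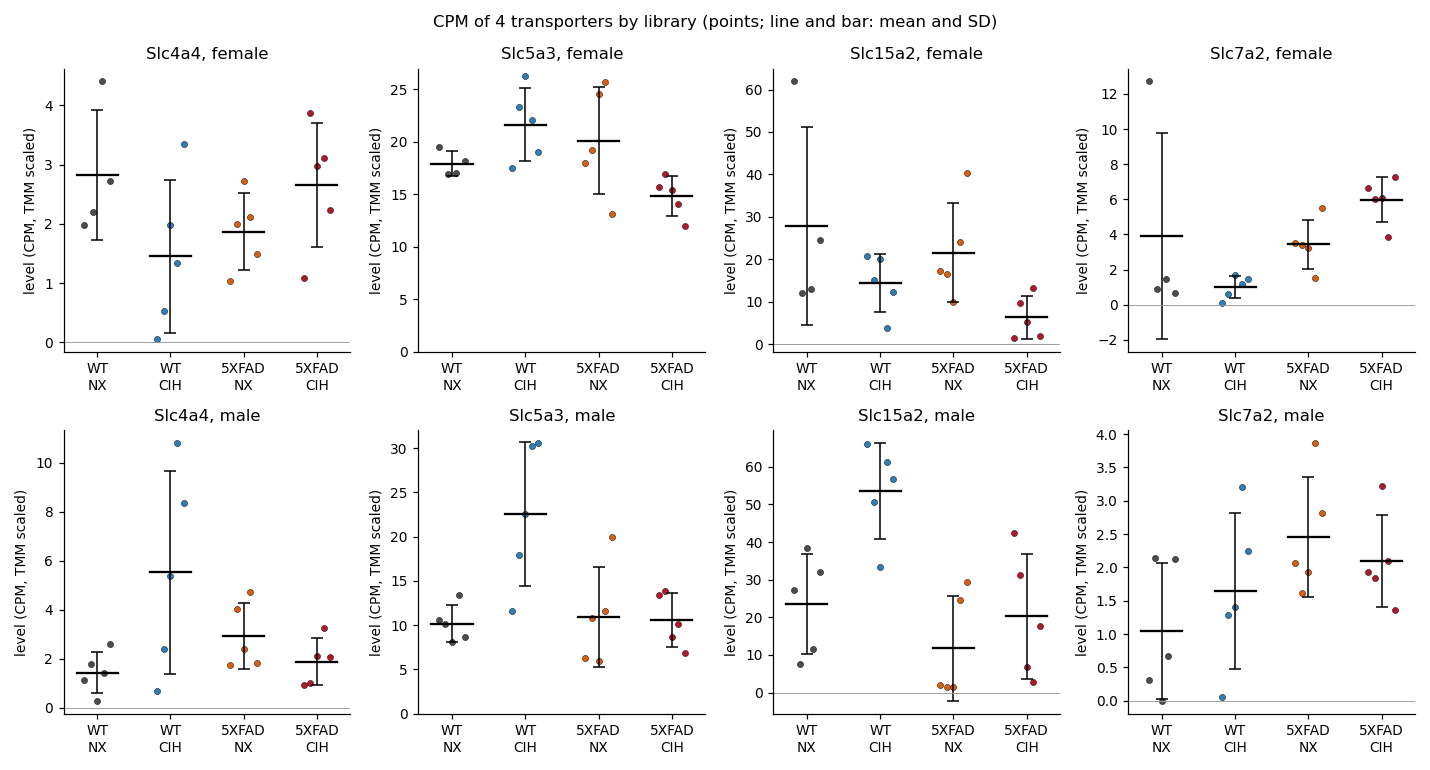
Levels of Slc4a4, Slc5a3, Slc15a2 and Slc7a2 in CPM (TMM scaled, linear axes) in each female library (top) and male library (bottom), by group, with the mean and SD. The male WT CIH group has the highest mean of Slc4a4 (5.53 CPM), Slc5a3 (22.6) and Slc15a2 (53.6), with M WT CIH 1 inside the WT NX range for the first 2, and F WT NX 1 stands alone for Slc15a2 and Slc7a2.

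The calls of the male WT CIH group depended on the fit and on single libraries. With all 4 male groups in 1 fit, 0 of the 3 genes were called in WT NX vs WT CIH, as were 0% of all genes. Their log2FC was nearly the same (1.95, 1.15 and 1.19). With the trend on gene length taken out, Slc15a2 alone was called (1.02), Slc5a3 fell under the fold limit (0.88) and Slc4a4 was not called (1.68). That fit called 2.22% of all genes. Leaving out M WT CIH 4 or M WT CIH 5 ended the call of Slc4a4 (1.57 and 1.76), and leaving out M WT NX 2 that of Slc15a2 (0.96). With 1 library left out, 1.78% to 4.18% of all genes were called. In WT CIH vs 5XFAD CIH, all 3 calls ended without M WT CIH 4, where the log2FC was −1.15 for Slc4a4, −0.96 for Slc5a3 and −1.35 for Slc15a2. The call of Slc4a4 also ended without M WT CIH 3, M WT CIH 5, M 5XFAD CIH 1, M 5XFAD CIH 2 or M 5XFAD CIH 3 and with the length trend taken out (−1.21). That of Slc5a3 ended without M WT CIH 5 or M 5XFAD CIH 5 and with the length trend taken out (−0.81). That of Slc15a2 ended without M WT CIH 1 or M 5XFAD CIH 3, in DESeq2 and with 4 groups in 1 fit. In this comparison 16.4% to 20.6% of all genes were called with 1 library left out. The share was 17.5% with the length trend taken out, 19.7% in DESeq2 and 16.2% with 4 groups in 1 fit. Beside this group, the microglia list summed to 32900 to 36700 CPM in male WT NX and 28800 to 33400 in WT CIH, the neutrophil list to 207 to 1100 CPM in male WT NX and 95 to 284 in WT CIH, the early response list to 1480 to 2050 and 1360 to 2360, and the plaque-associated list to 14200 to 18700 and 11000 to 11700. The part of these in the result was not tested.

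The difference between the genotypes in the effect of CIH was fitted as an interaction over the 4 groups of a sex. EdgeR's quasi-likelihood test called 0 of the 8 genes in either sex, and 0% of the 15582 female and 15813 male genes tested. DESeq2 and the likelihood ratio test also called 0 of the 8. In the males they called 1.95% and 1.11% of all genes, and in the females 0%. Without the filter on low counts edgeR called Slc4a4, Slc5a3 and Slc45a3 in the males, and 2.06% of all genes. At an unadjusted p below 0.05 there were 3 of the 8 in the females (3.78% of all genes) and 3 in the males (24.4%). The male values were −2.59 ± 0.82 (SE, log2) for Slc4a4, −1.20 ± 0.43 for Slc5a3 and −2.95 ± 1.00 for Slc45a3, where a negative value means that 5XFAD moved down relative to WT under CIH. That of Slc45a3 again rests on the 10 counts of WT NX and became −4.85 without M WT NX 4, so it is no size. The value of Slc15a2 was −0.42 ± 1.00, that of Slc44a1 −0.14 ± 0.16 and that of Slc2a6 0.76 ± 0.43. The female values were 2.78 ± 0.96 for Slc7a2 and 2.16 ± 0.87 for Slc41a2, which became 0.78 and 0.86 without F WT NX 1, and −0.71 ± 0.22 for Slc5a3.

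**Figure D4:**
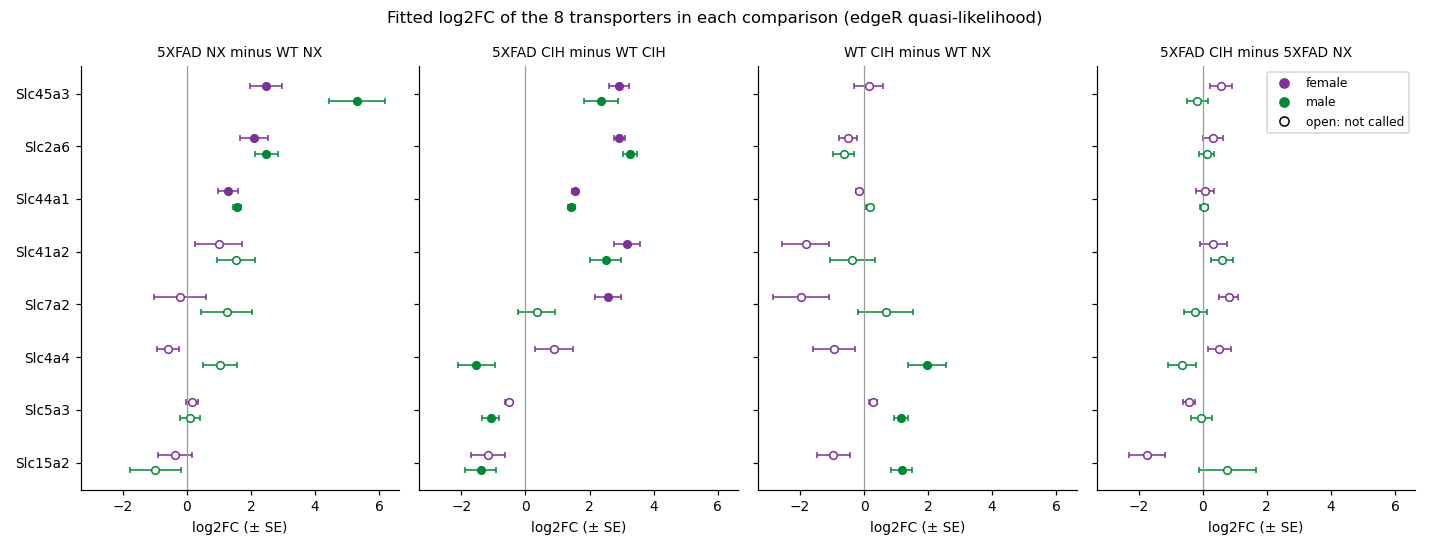
Fitted log2FC with its SE (horizontal) of each of the 8 genes (rows) in females and males, in 1 panel per comparison, where filled points are called and open points are not. Slc45a3, Slc2a6 and Slc44a1 are filled in both genotype panels in both sexes, Slc4a4, Slc5a3 and Slc15a2 are filled in the males in the CIH genotype panel (to the left) and in the WT panel of CIH (to the right), and the panel of CIH within 5XFAD has 0 filled points.

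The genes whose log2 CPM followed each of the 8 most closely, over the 19 female or 20 male libraries, were listed by Pearson r as a description. Since the groups differ, a gene that follows the genotype scores high with any other such gene. In the females these were Aplp2 (0.995) and Ctsb (0.995) for Slc44a1, Cpd (0.988) and Cd72 (0.987) for Slc2a6, Ptk7 (0.969) and BC021767 (0.966) for Slc45a3, Mt2 (0.944) and Creg2 (0.943) for Slc41a2, and Plxnd1 (0.951) and Shtn1 (0.934) for Slc7a2. In the males they were Apbb2 (0.989) and Aplp2 (0.988) for Slc44a1, Apoe (0.978) and Tpm4 (0.976) for Slc2a6, Tmem151a (0.934) and Gm42847 (0.929) for Slc45a3, Ascl4 (0.899) and Creg2 (0.888) for Slc41a2, and Ccnd2 (0.859) and Limch1 (0.851) for Slc7a2. Aplp2 stood beside Slc44a1, and Creg2 beside Slc41a2, in both sexes. For Slc4a4 the nearest were Etnppl (0.915) and Nrcam (0.905) in the females and, in the males, Fgfr3 (0.879) was among them. For Slc5a3 they were Prpf3 (0.88) and Dnajb1 (0.875) in the females and Trp53inp1 (0.962) and Zbtb44 (0.953) in the males. Those for Slc15a2 were weaker in the females, with Mdm1 (0.76) and Ctcf (0.749), than in the males, with Dnajb7 (0.895) and Gm16386 (0.886).

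The other Slc genes, taken by symbol without the mitochondrial carriers of the Slc25 family, show how common such calls were. Among them 11 of 189 were called in female NX (5.82%), 30 of 189 in female CIH (15.9%), 16 of 190 in male NX (8.42%) and 33 of 190 in male CIH (17.4%), against 5.99%, 13%, 8.25% and 18.7% of all genes. The count in female NX was 0 to 33 with 1 library left out and 0 with the replicate block, under which 0.0482% of all genes were called. Their median log2FC was −0.0568, −0.00105, −0.0126 and −0.0587. Slc6a16 was higher in 5XFAD than in WT in female NX (0.0974 and 1.98 CPM, log2FC 4.26 ± 0.78 SE, adjusted p of edgeR 0.0176), and Slc4a11 likewise (log2FC 2.78 ± 0.74, adjusted p of edgeR 0.0396). In the same comparison Slc4a10, a sodium bicarbonate transporter, and Slc13a4, a sulphate transporter, were lower (−2.25 ± 0.61 and −2.12 ± 0.57), and choroid plexus, which expresses both, summed to 317 to 942 CPM in WT NX and 18.2 to 257 in 5XFAD NX, a part that was not tested. Without F 5XFAD NX 4 the log2FC of these 4 genes was 3.99, 2.93, −2.12 and −2.32 in the order named, and all were called. Without F WT NX 1 it was 4.33, 4.01, −2.46 and −2.34, and Slc4a10 was not called. With any other library left out, Slc4a11 and Slc13a4 were not called, and Slc4a10 only without F 5XFAD NX 3. Slc6a16 was not called without F WT NX 2, F WT NX 3 or F 5XFAD NX 5. In these fits 0.189% to 2.22% of all genes were called. With the replicate block none of these 4 genes was called. In female CIH, Slc39a12, a zinc transporter, stood at 22.4 CPM in WT and 6.47 in 5XFAD (log2FC −1.77 ± 0.10, adjusted p of edgeR 2.31e-08), and Slc5a10 at 6.24 and 1.43 CPM (−2.12 ± 0.23). Slc6a16 (2.34 ± 0.63) and Slc4a11 (2.05 ± 0.57) were again higher there.

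In male NX, Slc1a2, the glutamate transporter of astrocytes, stood at 8.45 CPM in WT and 67.0 in 5XFAD (log2FC 3.00 ± 0.52 SE), beside the astrocyte list of which it is a member. Slc5a10 (−1.98 ± 0.40) and Slc36a2, an amino acid transporter (−1.63 ± 0.27), were lower in 5XFAD. In male CIH, Slc6a16 (2.93 ± 0.85) and Slc4a11 (2.21 ± 0.58) were higher and Slc24a1 (−2.34 ± 0.74) and Slc22a4 (−2.19 ± 0.62) lower. For CIH in WT males only 2 of 191 were called (1.05%, against 2.51% of all genes), both higher under CIH. Slc1a2 was 1 of them (8.45 and 23.2 CPM, 1.47 ± 0.52) and was named after its values were seen, because there were so few. In the other 3 CIH comparisons edgeR called 0 of 191, 188 and 181 such genes, with 7, 0 and 8 at an unadjusted p below 0.05, and DESeq2 called 0 as well.

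Genes that work beside the 8 transporters were followed in 7 lists of 87 genes in all. Of those tested, 4 of 68 were called in female NX (5.88%), 9 of 69 in female CIH (13%), 8 of 71 in male NX (11.3%) and 9 of 71 in male CIH (12.7%), against 5.99%, 13%, 8.25% and 18.7% of all genes. The 4 called in female NX were Slc16a3, Slc15a3, Trpm6 and Pld3. Without F 5XFAD NX 4 all of them were called (log2FC 1.38, 1.34, 5.52 and 2.04), among 9 of 66 genes (13.3% of all genes). Without F WT NX 1 Trpm6 (7.13) alone of them was, the others standing at 1.30, 1.21 and 1.87 (3.67% of all genes). With any other library left out, Trpm6 alone was called, and without F WT NX 3 it was not (0.189% to 2.22% of all genes). The replicate block called 0 of the 68 (0.0482% of all genes). For CIH in WT males edgeR called 0 of 69 genes (2.51% of all genes), with 36 at an unadjusted p below 0.05 (39.8% of all genes) and 11 higher and 16 lower at the FDR limit alone (13.6% and 15% of all genes). In the other 3 CIH comparisons it called 0, with 4, 1 and 3 genes at an unadjusted p below 0.05 (3.87%, 3.22% and 3.3% of all genes).

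Of 12 genes of pH and bicarbonate, listed for Slc4a4, the lactate exporter Slc16a3 was called higher in 5XFAD in all 4 genotype comparisons, with 52.6 and 118 CPM in female NX, 40.1 and 134 in female CIH, 70.9 and 194 in male NX and 49.5 and 187 in male CIH. Its relative Slc16a1 was called higher in female CIH (log2FC 1.28 ± 0.11 SE) and in male NX (1.03 ± 0.16), and no other gene of this list was called. Of 9 genes of peptide uptake and sensing, listed for Slc15a2, its lysosomal relative Slc15a3 alone was called, higher in all 4 (1.14 ± 0.31, 1.35 ± 0.08, 1.16 ± 0.16 and 1.55 ± 0.16). Slc15a2 itself was called lower in male CIH, and its log2FC was below 0 but not called in female CIH and male NX. Its value of −0.37 ± 0.53 in female NX became 0.39 without F WT NX 1. Of 11 genes of osmolytes and inositol, listed for Slc5a3, the aldose reductase Akr1b3 alone was called, in male CIH (57.4 and 117 CPM, 1.03 ± 0.12).

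Of 12 magnesium genes, listed for Slc41a2, the magnesium channel Trpm6 was called higher in 5XFAD in all 4, with 0.185 and 8.64 CPM in female NX, 0.314 and 8.53 in female CIH, 0.361 and 3.88 in male NX and 0.396 and 3.12 in male CIH. Of 15 arginine genes, listed for Slc7a2, Ass1, which makes the precursor of arginine from citrulline, was called higher in female CIH (0.913 and 5.51 CPM, log2FC 2.59 ± 0.22 SE), male NX (2.30 ± 0.61) and male CIH (3.19 ± 0.57). Of 14 choline genes, listed for Slc44a1, Pld3, a lysosomal member of the phospholipase D family, was called higher in all 4 (1.79 ± 0.44, 1.99 ± 0.09, 1.73 ± 0.19 and 2.50 ± 0.13), while in male CIH Pld1 was lower (−1.19 ± 0.13) and Pemt higher (1.85 ± 0.44). Of 14 sugar genes, listed for Slc45a3 and Slc2a6, the glucose transporters Slc2a1 (1.22 ± 0.12) and Slc2a3 (1.06 ± 0.10) were called higher in female CIH, and Slc2a1 also in male NX (1.02 ± 0.18) and CIH (1.20 ± 0.15). Slc2a5, the fructose transporter of resting microglia, had the highest mean CPM of this list in these comparisons and was called lower in female CIH (617 and 294 CPM, −1.06 ± 0.07) and male NX (838 and 411 CPM, −1.03 ± 0.16). Slc2a6 was thus higher in the same comparisons in which Slc2a5 was lower.

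**Figure D5:**
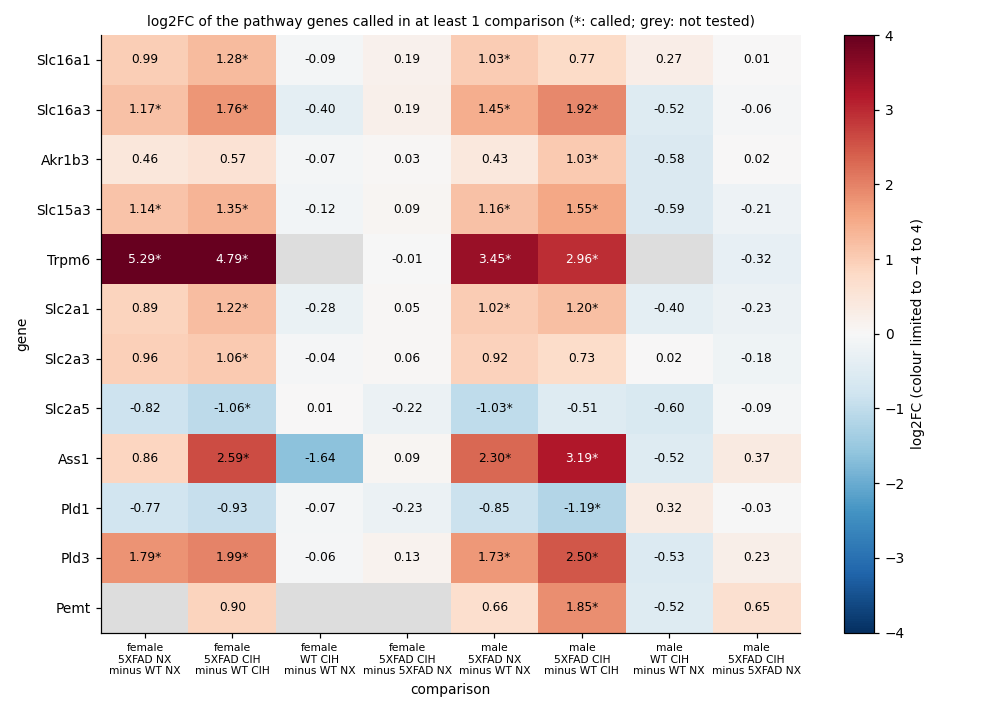
Fitted log2FC (colour and number, rows by gene) of the 12 pathway genes called in at least 1 comparison, in the 8 comparisons, where a star marks a call and grey a gene not tested. All stars are in the columns of genotype, such as 5.29 for Trpm6 in female NX and 2.50 for Pld3 in male CIH, and the 4 columns of CIH have 0.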

How the data were processed

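Total RNA of 39 preparations of CD11b-positive microglia was sequenced, and the submitters' processing notes name HISAT2 and GRCm38 (mm10). The counting tool, its strand setting and the annotation were not given in the sources used here. The authors deposited whole-number read counts per gene and FPKM values for each cohort. The deposited FPKM equal the count divided by gene length and library total in the females, and differ from it by a factor of 0.831 to 1.26 per library in the males, so FPKM were checked and not tested. Libraries were grouped by their labels, and all 76 pairs within a group differed by more than sampling noise (smallest chi-square per degree of freedom 4.95). If libraries of a group share an origin, the p-values measure technical spread only.

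Counts were fitted with edgeR 4.0.16 (limma 3.58.1, R 4.3.3) by the quasi-likelihood F test, with TMM factors (0.874 to 1.16 in the females, 0.775 to 1.2 in the males), the 2 groups compared only, a filter that kept genes whose CPM exceeded 1 in 3 or more libraries, and Benjamini-Hochberg adjustment over all genes tested. The call followed the thresholds of the study. The interaction was fitted over the 4 groups of a sex. The fold change is that of the group named second over the group named first, and its SE was taken from the test statistic. Levels per kilobase use the gene length behind the deposited FPKM. Scripts were tested on simulated data. Alternatives were the likelihood ratio test, DESeq2 1.42.0, library size alone, no filter, at least 10 counts in every library, FDR alone, all 4 groups in 1 fit, the replicate number as a block, removal of the trend on gene length (lowess span 0.3), and each library left out.

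The 8 genes, the 7 pathway lists, the 10 marker lists and the tests were chosen with earlier results of these data known. All 8 genes passed the filter in every comparison but 1, in which Slc45a3 did not. Named besides them were the 2 genes with the highest r for each (log2 CPM, prior count 1), the pathway genes called, and, of the other Slc genes, the 2 with the largest log2FC called in each direction per genotype comparison. Some items that these rules name are not reported here.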

Additional observations from a re-analysis of the deposited data

Results flagged for a closer look

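In 6 of 64 groups of 4 or 5 libraries, over the 8 genes, 1 library stood apart from the others by Dixon's criterion at the 95% level, which chance gives in about 1 of 20 groups. F WT NX 1 stood apart for Slc41a2 (5.40 CPM) and for Slc7a2 (12.7 CPM), and its neutrophil list (160 CPM, against 35.2 to 60.5 in the other 3) and plaque-associated list (21200 CPM) were the highest of its group. F WT CIH 1 stood apart for Slc2a6 (6.37 CPM). M WT NX 4 stood apart for Slc45a3 (0.537 CPM, 8 counts), as did M WT CIH 5 (2.19 CPM). M WT CIH 1 was low for Slc44a1 (32.3 CPM) and had the highest early response list of its group (2360 CPM). The part of these lists in the values was not tested.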

How the results depend on the processing

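Of 1517 refitted log2FC of the 8 genes, 1500 moved by less than 1 SD between replicates, 17 moved further and 0 turned a called value to the opposite sign. A call was gained in 14 of them and lost in 46. Called transporters in female WT NX vs 5XFAD NX were 0 with the replicate block (0.0482% of all genes) and 0 to 3 with 1 library left out (0.189% to 13.3%). They were 5 without F WT NX 1 and F 5XFAD NX 4 (14.8%), a choice made after seeing the data. In female CIH they were 2 with at least 10 counts in every library (10.9% of all genes), a filter that drops low genes. There they were 5 to 6 with 1 library left out (12.2% to 13.7%). In male WT NX vs WT CIH they were 0 with all 4 groups in 1 fit (0% of all genes) and 1 with the length trend removed (2.22%). With 1 library left out they were 2 to 3 there (1.78% to 4.18%). With 1 library left out they were 3 to 4 in male NX (7.06% to 8.81% of all genes) and 4 to 7 in male CIH (16.4% to 20.6%). They were 0 to 0 in the 3 other CIH comparisons and both interactions. Of all genes, 0% were called there, except for 0% to 3.03% in the male interaction. The male interaction had 3 without a filter on low counts (2.06% of all genes). Other Slc genes called in female NX were 18 of 189 with DESeq2 (8.26% of all genes) and 7 with library size alone (4.55%). They were 5 of 164 with at least 10 counts (5.35%) and 38 of 189 by FDR alone (13.9%). With 4 groups in 1 fit they were 20 of 195 (8.54%), and with the replicate block 0 (0.0482%). Without both libraries they were 37 of 182 (14.8%), and with 1 left out 0 to 33 (0.189% to 13.3%). By FDR alone they were 112 of 189 in female CIH (51.9% of all genes) and 40 of 190 in male NX (17.8%). By the same limit they were 89 of 190 in male CIH (49%) and 47 of 191 in male WT NX vs WT CIH (28.6%). In male CIH they were 20 of 156 with at least 10 counts (16.4% of all genes). In male WT NX vs WT CIH they were 1 with DESeq2 (2.85% of all genes), 9 without a filter (1.72%) and 1 with at least 10 counts (2.11%). They were 0 there with 4 groups in 1 fit (0%) and 4 with the replicate block (2.66%). With 1 library left out they were 27 to 31 in female CIH (12.2% to 13.7% of all genes) and 12 to 17 in male NX (7.06% to 8.81%). They were 31 to 34 in male CIH (16.4% to 20.6%) and 1 to 4 in male WT NX vs WT CIH (1.78% to 4.18%). In the other 3 they were 0 to 0, as were 0% of all genes. Where no reason is given, the cause was not tested. Replicate numbers were not used as pairs. In no comparison did every pair of deviations correlate above 0.1, a rule that cannot exclude pairing. In female 5XFAD NX vs 5XFAD CIH, replicates 3, 4 and 5 had an r of 0.209, 0.349 and 0.303, and replicates 1 and 2 −0.0386 and −0.0256. In female NX the block took the pathway genes called from 4 to 0. Besides the counts given, the block changed none by over 1.5 times. Library size alone moved the median of all genes by −0.151 in female NX, −0.193 in female CIH, −0.192 in male NX, −0.374 in male CIH and −0.175 in the male interaction. Low counts of Slc45a3, Slc41a2, Slc7a2 and Slc4a4 limit the precision of their values.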
